A study of Homo sapiens with 240 samples.

Results

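HEK 293T cells with intact AMPK (labelled AMPK WT) were treated with CCCP, and their polyadenylated RNA was sequenced after 8 h and 16 h. HEK 293T is a transformed line of human embryonic kidney origin. The 3 libraries at 8 h and the 3 at 16 h, the late times of a CCCP course, were each set against the 3 AMPK WT libraries of DMSO, the solvent, which the labels place at 0 h. These groups were chosen by the genotype, treatment and time in the labels, and they hold 9 of the 240 libraries of the series. The study also treated AMPK WT and AMPK KO cells with the complex I inhibitor rotenone (Rot), the biguanide phenformin (Phen) or the direct AMPK activator 991, and asked how such stress alters transcription in general and of lysosomal and mitochondrial genes in particular. AMPK WT cells given Rot, Phen or 991 for 16 h, 3 libraries each, serve below for comparison, as do the AMPK KO libraries under DMSO and CCCP.

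DMSO was labelled only as 0 h, so a change from it joins the effect of CCCP with that of 8 or 16 h in culture, and these cannot be told apart. The CCCP dose is not given in the sources used here, nor is it said whether replicates were separate cultures, so the spread behind each p-value is that between libraries, which may be technical. Another 3 AMPK WT libraries titled CCCP 4 h carry a description that gives 16 h. They were placed by title and tags and appear only as earlier points of the course, never in a late group.

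CCCP is a protonophore: it carries protons across the inner mitochondrial membrane and collapses the potential that drives ATP synthesis and protein import. In such mitochondria the protease OMA1 is activated and cleaves DELE1, which reaches the cytosol and switches on the kinase HRI (EIF2AK1). HRI phosphorylates the translation factor eIF2 alpha, general translation slows, and translation of the transcription factor ATF4 rises, a sequence known as the integrated stress response. ATF4 and its partner CHOP (DDIT3) drive genes of amino acid supply, tRNA charging and redox balance. Loss of potential also stabilises the kinase PINK1 on mitochondria, where it recruits the ubiquitin ligase parkin to mark them for removal, and the fall in ATP activates AMPK.

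Values are TPM, which scale reads by transcript length and by library. Within groups, libraries correlated at 0.993 to 0.9976 over genes on the log scale, and no pair held identical values. For genes known from such HEK lines, the summed level was 307 to 335 TPM under DMSO, 360 to 365 at 8 h and 442 to 458 at 16 h. That sum joins members that moved in opposite directions. At 16 h KRT8, VIM, KRT18 and PAX2 were higher than DMSO at an adjusted p under 0.05, while NEFL and NEFM were lower. Of 15 markers of differentiated kidney epithelium, 13 were under 0.1 TPM in all 9 libraries. Markers of other cells summed to low levels: fibroblast markers to 9.38 to 9.93 TPM under DMSO and 4.85 to 5.33 at 16 h, blood markers to at most 3.28 TPM, and endothelial markers, 5 of 6 of them under 0.1 TPM throughout, to at most 0.498 TPM in any of the 9. Markers of keratinised epithelium summed to 9.61 to 10.3 TPM under DMSO and 9.57 to 9.86 at 16 h. Of those 7 markers, 6 were under 0.1 TPM in all 9 libraries. The kidney epithelium sum itself went from 2.91 to 4.58 TPM under DMSO to 1.41 to 1.60 at 16 h. Whether these shifts bear on the results was not tested, and in bulk RNA fewer cells of a type and less RNA per cell cannot be told apart. Replicate 1 of DMSO stood apart from the other DMSO libraries in short-lived transcripts: FOSB was at 26.1 TPM there against 5.37 and 9.57, EGR3 at 11 against 3.02 and 5.50, and TXNIP at 33.7 against 16.4 and 19.2. For a part of the named genes the value without that library is also given. A gene shown without such a value may still have moved.

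Most expressed genes differed from DMSO at both times, mostly by small amounts. Of 13617 genes tested, 8850 passed an adjusted p of 0.05 at 8 h, 4796 higher and 4054 lower (65% in all, 35.2% higher, 29.8% lower). At 16 h 9622 passed, 6000 higher and 3622 lower (70.7%, 44.1% and 26.6%). With a change of at least 1.5-fold on the log2(TPM + 1) scale as well, 799 genes were higher and 797 lower at 8 h (11.7% together), and 1399 higher and 800 lower at 16 h (16.1%). The libraries of CCCP and DMSO did not overlap for 67.7% of genes at 8 h and 73.7% at 16 h, so a lack of overlap is common here. The median change of all genes was 0.02 at 8 h and 0.09 at 16 h on the log2 scale. The surplus of higher calls at 16 h depended on the scaling: 62.4% of calls were higher there, against 49.9% (4724 higher, 4745 lower) after scaling by median ratios and 52.4% (5000 higher, 4536 lower) after quantile normalization. Changes near 0.1 are therefore read below only beside these medians. Both comparisons use the same DMSO libraries, so their values are set side by side without a test of likeness. Below, log2 values are changes of log2(TPM + 1), which understates the change of genes near or under 1 TPM, and are given with ± 1 SE and 3 libraries per group.

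Most transcription factors of the integrated stress response rose. ATF4 stood at 419, 386 and 358 TPM in the 3 DMSO libraries, at 795, 824 and 811 at 8 h and at 834, 845 and 851 at 16 h. Each CCCP library lay above each DMSO library, the log2 change was 1.06 ± 0.06 at 8 h and 1.12 ± 0.06 at 16 h (adjusted p = 3.8e-24 and 1.1e-25), and ATF4 showed no difference that passed the test between the 2 times (0.06 ± 0.06, adjusted p = 0.49). DDIT3, which encodes CHOP, read 7.05, 6.56 and 6.79 TPM under DMSO, 46.9, 46.4 and 48.9 at 8 h and 39, 43.3 and 43.1 at 16 h, a rise of 2.63 ± 0.08 and 2.46 ± 0.08. NUPR1, a small chromatin-associated stress protein, went on climbing: 1.47, 0.898 and 0.993 TPM became 9.45, 10.3 and 8.96 at 8 h and 25.1, 23.1 and 25.4 at 16 h. Its change grew from 2.33 ± 0.13 to 3.60 ± 0.13, and the step between the times was 1.28 ± 0.13 (adjusted p = 1.4e-12). TRIB3, a pseudokinase that restrains ATF4 and AKT signalling, also rose late, from 16.5, 15.4 and 15.5 TPM to 29.7, 33.4 and 33.7 and then to 56.1, 55.8 and 53.2 (0.98 ± 0.07, 1.74 ± 0.07, and 0.75 ± 0.07 between the times).

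Of the 11 factors of this response tested, 9 were higher and 2 lower at 8 h, and 7 higher and 2 lower at 16 h, beside 35.2% and 44.1% of all genes higher. Their median log2 change was 1.06 and 1.24, against 0.02 and 0.09 over all genes. ATF5, an ATF4-related factor tied to the mitochondrial unfolded protein response, went the other way, from 16.6, 16.5 and 15.4 TPM to 8.62, 9.62 and 9.17 at 8 h and 11.7, 12.1 and 12 at 16 h (-0.76 ± 0.07 and -0.40 ± 0.07, with both late groups under DMSO). ATF3 depended on replicate 1 of DMSO, which at 53 TPM lay above every CCCP library while the others were at 29.5 and 35.3. It read 52.2, 51.3 and 46.4 at 8 h and 39.3, 46.6 and 45.1 at 16 h, so the 16 h change of 0.19 ± 0.12 did not pass (adjusted p = 0.17). Without that library the ATF3 change at 16 h was 0.42 (adjusted p = 0.0025), while the 8 h call was lost when replicate 2 (0.18, adjusted p = 0.35) or 3 (0.38, adjusted p = 0.085) was left out of every group and when the fit held just the groups compared (adjusted p = 0.073).

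Single targets of ATF4 and CHOP in redox balance and growth control rose steeply, while the lists they belong to moved less. CHAC1, which degrades glutathione, was at 4.61, 2.02 and 2.69 TPM under DMSO, 28.9, 31.5 and 34.9 at 8 h and 25.2, 27.2 and 22.8 at 16 h (3.04 ± 0.16 and 2.71 ± 0.16). Its DMSO libraries spread widely, but all CCCP libraries lay above them, and without replicate 1 of DMSO the changes were 3.29 and 2.96. DDIT4 and SESN2, both brakes on the growth kinase mTORC1, rose as well: DDIT4 from 19, 17.7 and 16.2 TPM to 137, 148 and 151 and then 142, 142 and 139 (2.97 ± 0.15 and 2.93 ± 0.15). SESN2 rose by 1.90 ± 0.09 and 1.70 ± 0.09, from 14.5 to 19 TPM under DMSO to 53.8 to 56.8 at 16 h. Of the 15 brakes on mTORC1 tested, 7 were higher and 3 lower at 8 h and 9 and 3 at 16 h with medians of 0.08 and 0.18. CTH, which makes cysteine from cystathionine, peaked at 8 h: 13.9, 11.9 and 12.6 TPM became 45.1, 43.3 and 45 and then 32.4, 33.7 and 34.9. That decline between the times passed the test (-0.39 ± 0.07, adjusted p = 2.2e-06). Of the 12 genes of cysteine and glutathione metabolism, 6 were higher and 2 lower at 8 h and 8 and 1 at 16 h, with medians of 0.16 and 0.23.

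**Figure D1:**
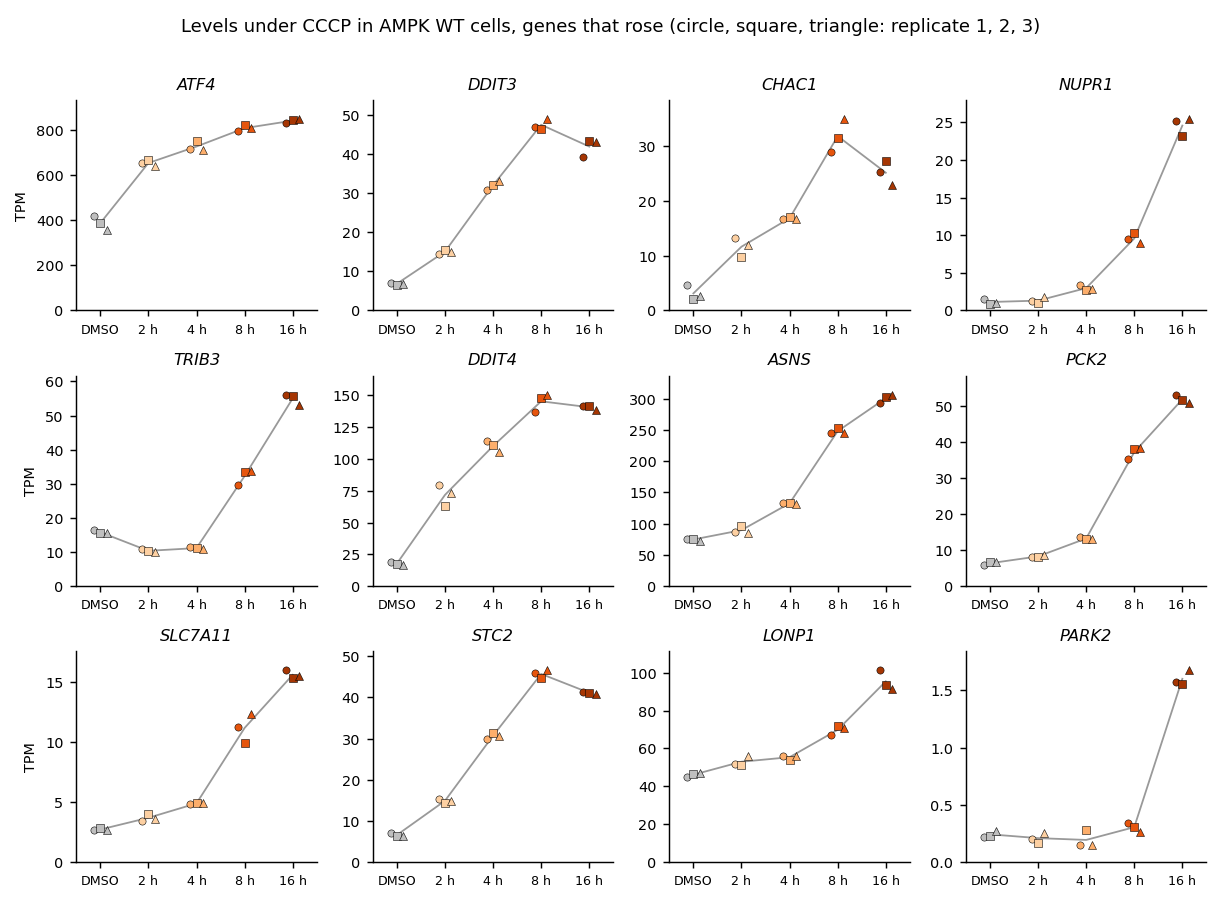
TPM of 12 genes in each AMPK WT library under DMSO (0 h) and after 2, 4, 8 and 16 h of CCCP, 1 panel a gene with its own linear axis; circle, square and triangle are replicates 1, 2 and 3, and the line joins group means. ATF4 had a mean of 728 TPM by 4 h. By group mean, ATF4, NUPR1, TRIB3, ASNS, PCK2, SLC7A11, LONP1 and PARK2 were highest at 16 h, and DDIT3, CHAC1, DDIT4 and STC2 at 8 h.

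Promoters of all tested members of several gene lists, whichever way they changed, were searched for TGATGNAA on both strands. This motif is the core of the composite element that ATF4 binds with C/EBP partners. A gene counted as holding it if the window of any of its listed starts did. The windows run from 250 bases before to 50 after each RefSeq start on GRCh38.p14, and 3.62% of all 35116 windows hold the motif. It was found for 3 of the 10 stress response factors with a listed promoter, 2 of 10 genes of serine, folate, asparagine and proline synthesis, 5 of 12 amino acid transporters and 6 of 13 cytosolic tRNA synthetases. It was also found for 1 of 6 secreted factors and 2 of 8 genes of cysteine and glutathione metabolism. Over the 6 groups of the response together it was found for 19 of 59 genes (32.2%), beside 281 of 10445 tested genes with a listed promoter (2.69%). Of the other lists searched, 0 of 15 sterol synthesis genes, 1 of 72 mitochondrial ribosomal protein genes and 2 of 30 complex I genes held it. Among immediate early genes it was 1 of 15, namely ATF3, which is also a stress response factor. Of the 19 genes of the 6 groups with the motif, 18 were higher than DMSO at 16 h, beside 44.1% of all genes. Most tested members of each of the 6 groups were higher then, and members with and without the motif were not compared. The 6 groups are classes of the stress response, so their share does not describe genes picked for rising. The 4 windows below belong to the members with the motif that rose most at 16 h, and the capitals mark the match. In CHAC1 (chr15:40953221-40953520, plus strand) it starts 209 bases before the listed start, in SLC1A4 (chr2:64989149-64989448, plus) 7 before, in ASNS (chr7:97872359-97872658, minus) 68 before and in JDP2 (chr14:75427772-75428071, plus) 16 before. CHAC1 and SLC1A4 hold it on the reverse strand, so it reads TTGCATCA. RefSeq lists 2 starts each for SLC1A4 and ASNS and 3 for JDP2, and the first window with the motif is shown.
CHAC1: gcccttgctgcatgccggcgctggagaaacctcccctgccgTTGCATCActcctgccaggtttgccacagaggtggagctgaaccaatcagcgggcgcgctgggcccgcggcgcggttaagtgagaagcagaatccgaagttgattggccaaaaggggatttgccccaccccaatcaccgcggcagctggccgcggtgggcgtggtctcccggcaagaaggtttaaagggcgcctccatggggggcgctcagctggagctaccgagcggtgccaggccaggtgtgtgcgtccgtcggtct
SLC1A4: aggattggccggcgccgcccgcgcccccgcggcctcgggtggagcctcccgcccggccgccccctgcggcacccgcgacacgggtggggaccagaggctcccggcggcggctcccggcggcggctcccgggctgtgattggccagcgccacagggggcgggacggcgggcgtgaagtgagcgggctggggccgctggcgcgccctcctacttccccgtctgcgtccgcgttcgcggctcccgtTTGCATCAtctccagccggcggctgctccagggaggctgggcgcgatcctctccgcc
ASNS: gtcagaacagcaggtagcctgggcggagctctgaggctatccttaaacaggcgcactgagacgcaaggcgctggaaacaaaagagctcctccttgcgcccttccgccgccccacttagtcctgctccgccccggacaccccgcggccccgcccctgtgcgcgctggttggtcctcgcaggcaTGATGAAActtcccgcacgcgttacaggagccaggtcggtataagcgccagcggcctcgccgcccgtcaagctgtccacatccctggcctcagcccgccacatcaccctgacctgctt
JDP2: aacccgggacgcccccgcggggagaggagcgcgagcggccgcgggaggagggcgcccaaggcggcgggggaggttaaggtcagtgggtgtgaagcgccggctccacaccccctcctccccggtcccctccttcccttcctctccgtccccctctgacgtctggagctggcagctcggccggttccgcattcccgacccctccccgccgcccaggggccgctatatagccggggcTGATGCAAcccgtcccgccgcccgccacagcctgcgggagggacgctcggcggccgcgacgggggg
The ASNS letters differ from those of JDP2 at the base the motif leaves free. A match is a description of the letters and not a measured binding site. JDP2, a bZIP repressor and partner of the response factors, rose from 1.04, 1.51 and 1.30 TPM to 5.79, 6.65 and 6.29 at 8 h and 6.17, 6.33 and 6.21 at 16 h (1.67 ± 0.10 at both times).

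Enzymes that make non-essential amino acids rose together with their transporters. ASNS, asparagine synthetase, was at 75.3, 76.2 and 72.5 TPM under DMSO, 245, 254 and 246 at 8 h and 294, 303 and 307 at 16 h, with no overlap between any pair of groups. Its change was 1.72 ± 0.07 and then 2.00 ± 0.07, and the step between the times was 0.28 ± 0.07 (adjusted p = 0.00088), a call lost without replicate 3 (0.26, adjusted p = 0.071). PCK2, the mitochondrial enzyme that turns oxaloacetate into phosphoenolpyruvate, rose from 5.77, 6.64 and 6.58 TPM to 35.3, 37.9 and 38.2 and then 53.1, 51.6 and 50.8 (2.38 ± 0.08 and 2.85 ± 0.08). The serine pathway followed: PHGDH, its entry enzyme, by 0.56 ± 0.05 and 0.76 ± 0.05, and PSAT1, the next step, by 1.28 ± 0.08 and 1.61 ± 0.08. The mitochondrial folate enzymes MTHFD2 and ALDH1L2 rose by 1.20 ± 0.06 and 1.99 ± 0.11 at 16 h. In all, 12 of 16 synthesis genes were higher and 0 lower at 8 h, and 12 higher and 3 lower at 16 h, with medians of 0.54 and 0.74.

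Among 15 amino acid transporters, 12 were higher and 2 lower at 8 h and 11 and 2 at 16 h, with medians of 0.65 and 0.82. SLC7A11, the cystine importer of system xc-, rose from 2.62, 2.81 and 2.66 TPM to 11.3, 9.92 and 12.3 and then 16.0, 15.4 and 15.5 (1.72 ± 0.08 and 2.17 ± 0.08). SLC1A4, a neutral amino acid exchanger, stepped up between the times by 0.82 ± 0.07, from 7.73, 8.12 and 8.23 TPM at 8 h to 15.2, 14.6 and 15.1 at 16 h, having been at 2.83 to 3.01 under DMSO. SLC7A3, a carrier of arginine and lysine, was at 1.13 to 1.32 TPM under DMSO and 3.42 to 4.23 at 16 h (1.08 ± 0.06). The 2 members that fell were SLC7A6, a light chain that exchanges basic amino acids (-0.67 ± 0.06 and -0.47 ± 0.06), and SLC36A4, a proton-independent carrier of proline and tryptophan (-0.48 ± 0.07 and -0.66 ± 0.07).

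Most cytosolic tRNA synthetases rose, while calls among their mitochondrial counterparts were mixed. Of 19 cytosolic enzymes, 16 were higher and 3 lower at 8 h and 14 and 3 at 16 h, with medians of 0.41 and 0.55. AARS, which charges alanine tRNA, rose from 72.8, 68.2 and 68.8 TPM to 129, 127 and 135 and then 142, 141 and 143 (0.89 ± 0.03 and 1.01 ± 0.03). HARS and FARSA, which charge histidine and phenylalanine tRNA, were among those that fell, HARS by 0.42 on the log2 scale at 16 h (SE 0.03) and FARSA by 0.31 (SE 0.04). Of 16 mitochondrial enzymes, 8 were higher and 2 lower at 8 h, but 4 and 4 at 16 h (median -0.02; 3 and 8 under median-ratio scaling, 3 and 10 under quantile normalization). SARS2 read 28.4, 27.5 and 28.4 TPM at 8 h against 29.9, 30.8 and 30.9 under DMSO (adjusted p = 0.18; 0.035 with just those groups fitted), and then dropped to 19.7, 17.9 and 16.3. WARS2 was above DMSO at 8 h and below it at 16 h, with a fall of 0.59 ± 0.05 on the log2 scale in between (adjusted p = 1.3e-17), from 17.9 to 20.2 TPM down to 11.8 to 13.

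Secreted products of stressed cells were among the genes that still climbed after 8 h. INHBE, a subunit of activin E, was listed at 0.165, 0.0960 and 0.0730 TPM under DMSO, at 1.23, 1.45 and 1.43 at 8 h and at 4.40, 4.46 and 4.25 at 16 h. FGF21, a hormone released by cells with faulty mitochondria, was listed at 0.0370 TPM in 1 DMSO library and at 0 in the other 2, and reached 0.640 to 0.790 at 16 h (0.75 ± 0.06). GDF15, a circulating signal of mitochondrial disease, rose at 16 h to 3.41, 3.43 and 3.07 TPM (1.08 ± 0.23, adjusted p = 2.6e-05). Its DMSO levels of 2.17, 0.591 and 0.662 show the high replicate 1, and leaving out that library gave 0.39 at 8 h (adjusted p = 0.17; 0.0028 without replicate 1 of every group) and 1.40 at 16 h. STC2, a glycoprotein of stress tolerance, rose from 6.20 to 7.08 TPM to 44.6 to 46.6 at 8 h and 40.9 to 41.4 at 16 h (2.64 ± 0.11 and 2.49 ± 0.11). VEGFA, the angiogenic growth factor, rose by 1.41 ± 0.07 and 1.68 ± 0.07, and ADM2 by 2.25 ± 0.10 and 2.36 ± 0.10. Its relative ADM, a vasodilator peptide, fell from 12.1, 7.38 and 8.06 TPM to 3.40, 3.58 and 3.45 at 16 h (-1.16 ± 0.17; -0.96 without replicate 1 of DMSO). Of the 8 secreted factors tested, 5 were higher and 1 lower at 8 h and 6 and 1 at 16 h, with medians of 0.76 and 1.38.

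Genes that control eIF2 alpha, among them its kinases and phosphatase subunits and OMA1, changed less. Of the 10 tested, 7 were higher and 2 lower at 8 h and 8 and 2 at 16 h, with medians of 0.29 and 0.39. These counts do not describe the path from OMA1 over DELE1 to HRI alone. OMA1 rose from 15.5, 16.2 and 17.4 TPM to 24.6, 23.1 and 23.2 at 8 h and 22.5, 24.7 and 23.8 at 16 h, by 0.51 ± 0.07 at both times. KIAA0141, the older symbol of DELE1, was picked out after its values were seen. It was highest at 8 h, at 16.1, 14.7 and 15.5 TPM against 8.01, 8.62 and 8.15 under DMSO, and fell back to 12.2, 11.8 and 11.3 at 16 h (-0.36 ± 0.06 between the times, adjusted p = 1.5e-07). Among the eIF2 alpha kinases, EIF2AK3 (PERK, of the endoplasmic reticulum) rose by 0.35 ± 0.06 and 0.75 ± 0.06. EIF2AK4 (GCN2, which senses uncharged tRNA) rose by 0.54 ± 0.08 and 0.75 ± 0.08. No value is given here for HRI.

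Nuclear genes of the mitochondrion itself split. LONP1 and several mitophagy genes rose, while subunits of the respiratory chain and the mitochondrial ribosome were called lower more often than higher between 8 h and 16 h. LONP1, the matrix protease that clears unimported and damaged proteins, was at 44.7, 46.4 and 47.1 TPM under DMSO, 67, 71.8 and 70.7 at 8 h and 101.3, 93.7 and 91.4 at 16 h (0.59 ± 0.05 and 1.03 ± 0.05). The matrix chaperones HSPE1 and HSPD1 did not follow it. HSPE1 fell from 181, 204 and 193 TPM to 156, 165 and 155 and then to a mean of 131 ± 7.53 (SD) (-0.28 ± 0.07 and -0.55 ± 0.07). HSPD1, its partner, was at 283, 299 and 310.4 TPM at 16 h and overlapped DMSO at 307 to 346. That small fall (-0.14 ± 0.06, adjusted p = 0.021) was lost under quantile normalization (-0.03, adjusted p = 0.68) and without replicate 2 or 3. Of 25 mitochondrial chaperones and proteases, 9 were higher and 6 lower at 8 h, and 9 and 11 at 16 h. Over all genes the shares were 35.2% and 29.8% at 8 h, near those counts, and 44.1% and 26.6% at 16 h. Among the 25, GRPEL2 was higher and GRPEL1 lower at 16 h.

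Parkin answered late. PARK2, its gene, was at 0.220, 0.228 and 0.273 TPM under DMSO and 0.341, 0.305 and 0.262 at 8 h, and these overlapped (0.07 ± 0.06, adjusted p = 0.28; 0.13, adjusted p = 0.046, under quantile normalization). At 16 h it was at 1.57, 1.56 and 1.68 TPM, a change of 1.07 ± 0.06 from DMSO and of 1.00 ± 0.06 from 8 h (adjusted p = 3.2e-24), though still a low level. OPTN, a receptor that links ubiquitin on mitochondria to autophagosomes, rose by 0.72 ± 0.08 at 16 h, and USP30, a deubiquitinase that opposes parkin, by 0.64 ± 0.08. Of 26 genes of fission, fusion and mitophagy, 15 were higher and 4 lower at 8 h and 17 and 3 at 16 h, with medians of 0.18 and 0.25.

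No gene encoded by mitochondrial DNA is listed in the table, so the respiratory chain is described by its nuclear subunits. For complex I, 8 of 35 were higher and 11 lower at 8 h and 7 and 15 at 16 h. For complexes II to V with cytochrome c, 8 of 41 were higher and 12 lower at 8 h and 6 and 23 at 16 h (median -0.12). At 8 h the direction depended on scaling: quantile normalization gave 10 higher and 4 lower for complex I and 15 and 10 for the others, with medians of 0.03 and 0.04, and leaving out replicate 3 gave 7 and 7, and 10 and 8. At 16 h median-ratio scaling gave 5 higher and 26 lower for complex I and 2 and 33 for the others, while quantile normalization gave 7 and 11, and 12 and 16. Between 8 h and 16 h, complex I had 0 members higher and 11 lower, and complexes II to V 1 and 20, beside 40.5% of all genes called in that comparison, 29.3% higher and 11.2% lower. Both other scalings kept these directions (0 and 19, and 0 and 31, by median ratios; 0 and 10, and 5 and 17, by quantiles). UQCRFS1, the iron-sulfur protein of complex III, fell from 87.4, 85.9 and 85.9 TPM to a mean of 70.5 ± 0.523 (SD) at 8 h and then to 59.1, 59.2 and 59.7. ATP5G3, a c-ring subunit of ATP synthase, fell from 138, 142 and 141 TPM to 96.3, 97.5 and 98.8 at 16 h (-0.52 ± 0.03). NDUFAB1 of complex I, the mitochondrial acyl carrier protein, fell by 0.41 on the log2 scale at 16 h (SE 0.04), and NDUFS4 of the same complex rose from 39.1 to 41.6 TPM to 58 to 62.3 (0.56 ± 0.06).

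Mitochondrial ribosomal proteins fell more often than they rose: 15 of 77 were higher and 33 lower at 8 h, and 8 and 48 at 16 h, with medians of -0.08 and -0.15 beside 0.02 and 0.09 over all genes. Median-ratio scaling gave 3 higher and 56 lower at 16 h, and quantile normalization 10 and 47. MRPL27 fell from 117, 115 and 119 TPM to 72.8, 72.7 and 71.7 and then 63.9, 64.5 and 62.8 (-0.68 ± 0.05 and -0.86 ± 0.05), and MRPL16 by 0.69 on the log2 scale at 16 h (SE 0.04). MRPL24 was an exception, rising from 60.2, 68.7 and 69.1 TPM to 106, 113 and 102.3 and then 115, 122 and 122.8 (0.70 ± 0.06 and 0.86 ± 0.06). In the tricarboxylic acid cycle 8 of 20 genes were higher and 5 lower at 8 h, near the shares over all genes (35.2% and 29.8%) and turned to 5 and 8 by median-ratio scaling. At 16 h 5 were higher and 11 lower (3 and 15 by median ratios). IDH2, the NADP-dependent isocitrate dehydrogenase of the matrix, rose to 57.4, 58 and 58.9 TPM at 16 h from 29.6, 34.8 and 31.9, and SUCLG2, a subunit of succinyl-CoA ligase, to 28.3, 28.2 and 30.2 from 15.1, 16.9 and 15.8. SDHAF4, an assembly factor of complex II, rose from 6.25, 5.19 and 5.40 TPM to 23.9, 24.3 and 23.9 at 8 h and 19, 19.1 and 18.6 at 16 h (1.92 ± 0.12 and 1.59 ± 0.12). Whether fewer transcripts of a group mean fewer mitochondria per cell was not measured.

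**Figure D2:**
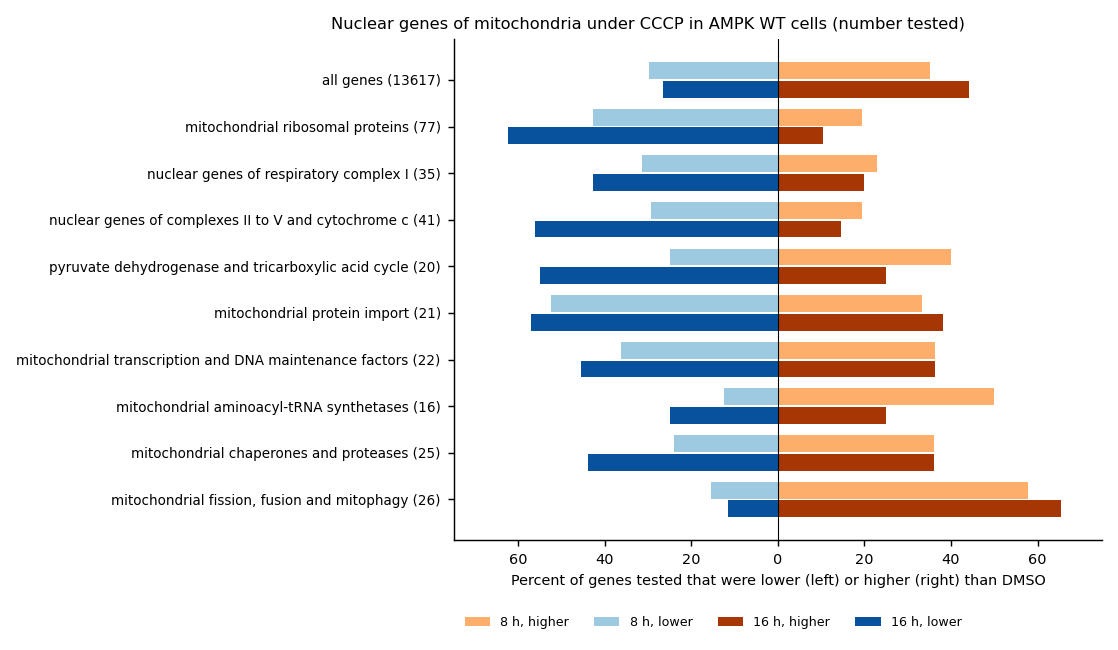
Percent of tested members higher (right) and lower (left) than DMSO at an adjusted p under 0.05 for 9 groups of mitochondrial genes and for all genes, at 8 h and 16 h of CCCP. At 16 h the lower share reached 48 of 77 for mitochondrial ribosomal proteins, while fission, fusion and mitophagy genes had 17 of 26 higher.

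Genes of the endoplasmic reticulum were mixed at 8 h and mostly higher at 16 h. HSPA5 (BiP), the main chaperone of the endoplasmic reticulum, was at 167.6, 187 and 182 TPM under DMSO, fell to 128, 129 and 128 at 8 h (-0.47 ± 0.06) and returned to 189, 188 and 189 at 16 h (0.08 ± 0.06, adjusted p = 0.22; 0.22, adjusted p = 0.00048, under quantile normalization). XBP1, a transcription factor of the unfolded protein response, and HERPUD1, which aids degradation of misfolded proteins, were up at both times, XBP1 from 69.9, 72.7 and 70.9 TPM to 127, 127 and 129 and 136, 141 and 140.1, and HERPUD1 by 0.71 ± 0.04 and 0.76 ± 0.04. Of 26 genes of this group, 10 were higher and 9 lower at 8 h, and 17 and 3 at 16 h. The 8 h counts lean either way with the scaling (8 and 12 under median ratios), but between the times 19 were higher and 0 lower, with a median of 0.18 against 0.06 for all genes (12 and 0 by median ratios, 16 and 0 by quantiles).

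Most cytosolic heat shock genes were lower at both times: 10 of 13 at 8 h and 8 of 13 at 16 h, with medians of -0.39 and -0.31. Over all genes, 29.8% and 26.6% were lower. In the other direction, 1 of the 13 was higher at 8 h, and HSF1 and DNAJB1 were higher at 16 h. DNAJA1, a co-chaperone of HSP70, fell from 170.2, 179.6 and 176 TPM to 82.2, 74.6 and 75.8, then came back to 115, 117 and 124 (0.61 ± 0.04 between the times, adjusted p = 2.4e-20). HSPA8, the constitutive HSP70, fell from 517, 799 and 732 TPM to 376, 352 and 352 at 8 h (-0.90 ± 0.10, or -1.09 without replicate 1 of DMSO). At 16 h it read 511, 554 and 561 and overlapped the low replicate 1 of DMSO; the call (-0.31 ± 0.10) was lost under quantile normalization (-0.11, adjusted p = 0.37), when the fit held just those groups (adjusted p = 0.083) and without replicate 2 (adjusted p = 0.19) or 3 (adjusted p = 0.12) of every group. Without that DMSO library the HSPA8 change at 16 h was -0.50. Proteasome subunits fell too, 18 of 30 at 8 h and 23 of 30 at 16 h, with PSMD3 of the regulatory particle going from 119.6, 125 and 120.5 TPM to 85.5, 84.6 and 80.4 at 16 h.

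Lysosomal hydrolases and autophagy genes, of the classes that the study's design text names, were more often higher than lower, by small amounts, beside 35.2% higher and 29.8% lower over all genes at 8 h and 44.1% and 26.6% at 16 h. Of 36 lysosomal hydrolases and cofactors, 18 were higher and 8 lower at 8 h and 23 and 4 at 16 h, with medians of 0.11 and 0.23; median-ratio scaling gave 20 and 9 at 16 h. HGSNAT, which acetylates heparan sulfate in the lysosome, rose from 3.71, 4.21 and 4.30 TPM to 5.26, 5.54 and 5.93 and then 10.1, 9.57 and 10.2 (0.37 ± 0.09 and 1.11 ± 0.09). GLA, the alpha-galactosidase, fell instead, from 292, 335 and 323 TPM to 218, 227 and 215 and then 117, 120.3 and 119.9 (-0.52 ± 0.06 and -1.40 ± 0.06), with a drop of 0.88 on the log2 scale between the times. Of 25 lysosomal membrane proteins, 10 were higher and 6 lower at 8 h and 9 and 7 at 16 h, near or under those shares (7 and 7 at both times under quantile normalization).

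Of 43 autophagy genes, 22 were higher and 8 lower at 8 h and 26 and 6 at 16 h (23 and 12 under median ratios). ATG10, an E2-like enzyme that conjugates ATG12 to ATG5, rose from 1.48, 1.52 and 2.01 TPM to 5.20, 4.80 and 5.33 and 5.49, 5.31 and 5.55 (1.20 ± 0.09 and 1.28 ± 0.09). MAP1LC3B, which coats autophagosomes, fell from 44.8, 39 and 38.9 TPM to 30.4, 31.6 and 29.9 at 16 h (-0.40 ± 0.05). FLCN, which holds TFEB in the cytosol through the Rag GTPases and is itself a TFEB target, was at 5.54 to 6.08 TPM under DMSO, 7.85 to 8.61 at 8 h and 7.25 to 7.79 at 16 h (0.44 ± 0.06 and 0.33 ± 0.06). RRAGD, the Rag GTPase that TFEB induces, rose by 0.22 ± 0.07 and 0.62 ± 0.07, to 7.66, 8.01 and 7.98 TPM from 4.73, 4.58 and 5.02; its 8 h call was lost without replicate 1 (adjusted p = 0.065). Of the 15 genes of folliculin, its partners, Rag GTPases and MiT/TFE factors, 8 were higher and 5 lower at both times.

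Most genes of cholesterol synthesis fell. Of 20 enzymes, 0 were higher and 15 lower at 8 h, and 1 was higher and 16 lower at 16 h, with medians of -0.59 and -0.69. INSIG1, an SREBP target that retains SREBP in the endoplasmic reticulum, was at 49.6, 58.5 and 55.8 TPM under DMSO, 18.7, 17.7 and 18.9 at 8 h and 15.2, 16.1 and 17.1 at 16 h (-1.51 ± 0.08 and -1.69 ± 0.08). IDI1, which isomerises isopentenyl diphosphate, fell from 36, 49 and 44.7 TPM to 15.7, 15 and 15 and then 13.9, 14.2 and 14.4. Both were above DMSO early in the course, with a mean of 108 TPM at 2 h for INSIG1 and 110.0 TPM for IDI1.

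Some enzymes fell further between the times. ACAT2, which makes acetoacetyl-CoA, went from 99.9, 105 and 103 TPM to 67.3, 67.3 and 67.2 and then 47.4, 47.6 and 48.6 (-0.48 ± 0.05 between the times), and FDFT1, squalene synthase, from 72.7, 85.3 and 78.4 to 51.9, 49.6 and 50.1 and then 38.1, 38.9 and 39.6. PMVK, phosphomevalonate kinase, was the member that rose, at 33.9, 34.8 and 32 TPM at 16 h against 26.8, 22.3 and 25.9. HMGCS1, which makes HMG-CoA, fell by 0.80 ± 0.12 and 0.82 ± 0.12 on the log2 scale (-0.95 and -0.98 without replicate 1 of DMSO). SREBF1, the gene of SREBP-1, fell by 0.26 ± 0.08 and 0.63 ± 0.08. In fatty acid synthesis the lists were mixed (3 of 11 higher and 4 lower at 8 h, 5 and 4 at 16 h), but SCD, the stearoyl desaturase, fell from 182, 187 and 183 TPM to 139, 135 and 141 and then 92.9, 92.6 and 94 (-0.41 ± 0.03 and -0.98 ± 0.03). FASN, fatty acid synthase, fell by 0.86 ± 0.06 and 0.74 ± 0.06.

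Glycolytic genes were lower at 16 h more often than higher, 13 against 8 of 23 (median -0.29), after 11 against 6 at 8 h (median -0.10). PKM, pyruvate kinase, fell from 799, 802 and 794 TPM to 578, 593 and 593 and then 412, 446 and 428 (-0.44 ± 0.03 and -0.90 ± 0.03). PDK1, a matrix kinase that inhibits pyruvate dehydrogenase, rose from 3.51, 4.75 and 4.37 TPM to 9.87, 8.69 and 8.54 and 9.55, 9.95 and 10.2 (0.95 ± 0.10 and 1.07 ± 0.10). TXNIP, which restrains glucose uptake, fell from 33.7, 16.4 and 19.2 TPM to 5.21, 5.01 and 5.16 and then 6.60, 6.79 and 6.71 (-1.91 ± 0.17 and -1.58 ± 0.17; -1.62 and -1.29 without replicate 1 of DMSO). Its paralogue ARRDC4 changed by -1.75 ± 0.12 and -1.54 ± 0.12 (-1.56 and -1.35 without it). Of the 8 genes of that family and its regulators, 6 were lower and 1 higher at both times.

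**Figure D3:**
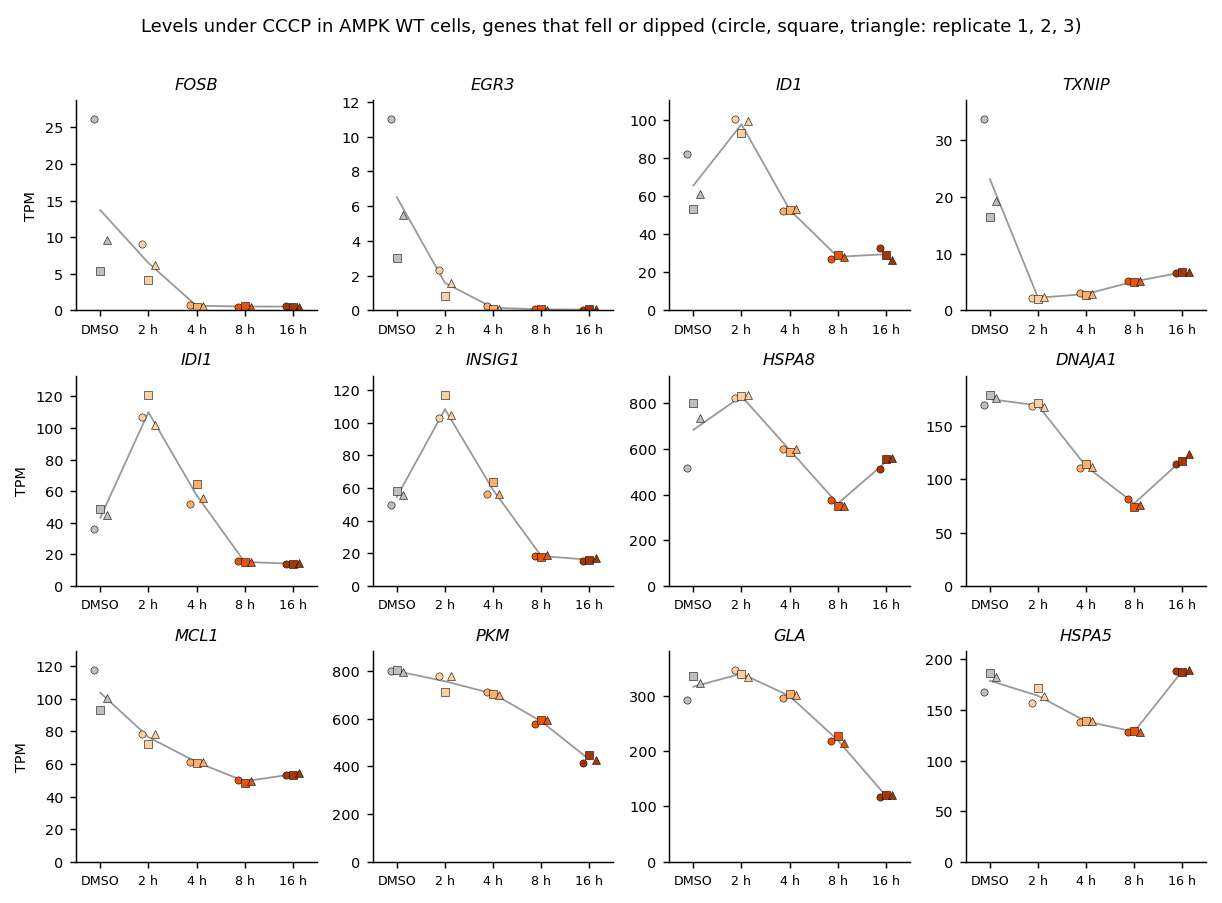
TPM of 12 genes in each AMPK WT library under DMSO and after 2, 4, 8 and 16 h of CCCP, drawn as in the plot of rising genes. FOSB, EGR3, ID1 and TXNIP have a high DMSO replicate 1; INSIG1 and IDI1 peaked at 2 h; HSPA8, DNAJA1 and HSPA5 were lowest at 8 h.

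Most growth factor responsive genes were low at both times. Of 17 immediate early genes, 13 were lower at 8 h and 13 at 16 h, with medians of -0.79 and -0.65. Over all genes, 29.8% and 26.6% were lower. KLF2 of that group was higher at 16 h. Leaving out replicate 1 of DMSO left 13 and 12 lower and medians of -0.69 and -0.52. FOSB, a subunit of AP-1, was at 26.1, 5.37 and 9.57 TPM under DMSO, 0.516, 0.605 and 0.481 at 8 h and 0.652, 0.445 and 0.493 at 16 h. It fell by 3.00 ± 0.34 at both times, or -2.42 and -2.43 without that library. EGR3, a zinc finger factor of the same class, was listed at 11, 3.02 and 5.50 TPM under DMSO and at no more than 0.0690 in any late library (-2.68 ± 0.23 and -2.69 ± 0.23; -2.27 and -2.28 without it). Brakes and readouts of the ERK pathway were lower for 10 of 12 at each time: DUSP5, an ERK phosphatase, went from 6.40, 6.54 and 5.68 TPM to 1.55, 1.58 and 1.65 at 16 h, ETV5 from 1.94, 1.45 and 1.75 to 0.157, 0.144 and 0.114, and SPRY2 from 26.7, 14 and 17.3 to 8.19, 8.32 and 8.27 (-1.09 ± 0.15, or -0.84 without that library).

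All 7 ID genes and inhibitors of SMAD signalling tested were lower at both times (medians -0.93 and -0.82), genes known as direct targets of BMP and TGF-beta signalling. ID1 fell from 82.3, 53.3 and 61 TPM to 26.8, 29.3 and 28.3 and then 32.8, 29 and 26.7 (-1.11 ± 0.14, or -0.93 without replicate 1 of DMSO), ID3 from 145, 124 and 121 to 63.2, 58.4 and 55.9 at 16 h, and BAMBI, a decoy receptor, from 17.4, 15.4 and 15.8 to 7.67, 7.61 and 8.11. Other steep falls were seen in single genes. GADD45B, a stress sensor, fell by 2.21 ± 0.23 and 2.03 ± 0.23 and FZD8, a Wnt receptor, by 2.29 ± 0.29 and 2.18 ± 0.29; without replicate 1 of DMSO the changes were -1.88 and -1.69, and -1.86 and -1.76. NEAT1, the scaffold RNA of paraspeckles, changed by -1.84 ± 0.48 and -2.29 ± 0.48, KCTD12 by -2.41 ± 0.21 and -2.04 ± 0.21 and the protocadherin PCDH7 by -2.22 ± 0.20 and -2.27 ± 0.20. The homeobox genes HOXB4 and HOXB8 changed by -2.08 ± 0.26 and -2.06 ± 0.19 at 16 h. Without replicate 1 of DMSO the changes were -1.53 and -1.99 for NEAT1 and -2.24 and -1.86 for KCTD12, and at 16 h -1.85 for HOXB4 and -1.96 for HOXB8.

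Regulators of cell death moved in both directions. MCL1, a short-lived survival protein, fell from 117, 93.2 and 100.2 TPM to 50.1, 48.3 and 49.7 and then 53.3, 53 and 54.6 (-1.05 ± 0.08 and -0.93 ± 0.08), and BCL2L11 (BIM), which promotes death, fell by 1.01 ± 0.10 and 0.88 ± 0.10. BBC3 (PUMA), also pro-death, rose to 11.4, 12.4 and 10.9 TPM at 16 h from 7.63, 4.43 and 4.64 (0.96 ± 0.13; 1.18 without replicate 1 of DMSO). In the cell cycle, 16 of 30 G2/M genes were higher and 8 lower at 8 h and 19 and 7 at 16 h, and 6 of 34 S phase genes were higher and 15 lower, then 7 and 17. Over all genes, 35.2% were higher and 29.8% lower at 8 h and 44.1% and 26.6% at 16 h, so the lower counts of the G2/M list lie near the background. NDC80, of the kinetochore, rose from 9.04, 10.6 and 9.19 TPM to 18.7, 18.6 and 19.4 at 16 h, and RRM2, which makes deoxynucleotides, fell from 117, 106 and 109.8 to 64.8, 65.1 and 67.4. Cytosolic ribosomal proteins were higher for 58 of 76 at 8 h and 45 at 16 h by small amounts (medians 0.16 and 0.11), a direction that vanished at 16 h under median-ratio scaling (14 higher, 11 lower). Ribosome biogenesis factors were lower for 20 of 37 at 8 h and 25 at 16 h.

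**Figure D4:**
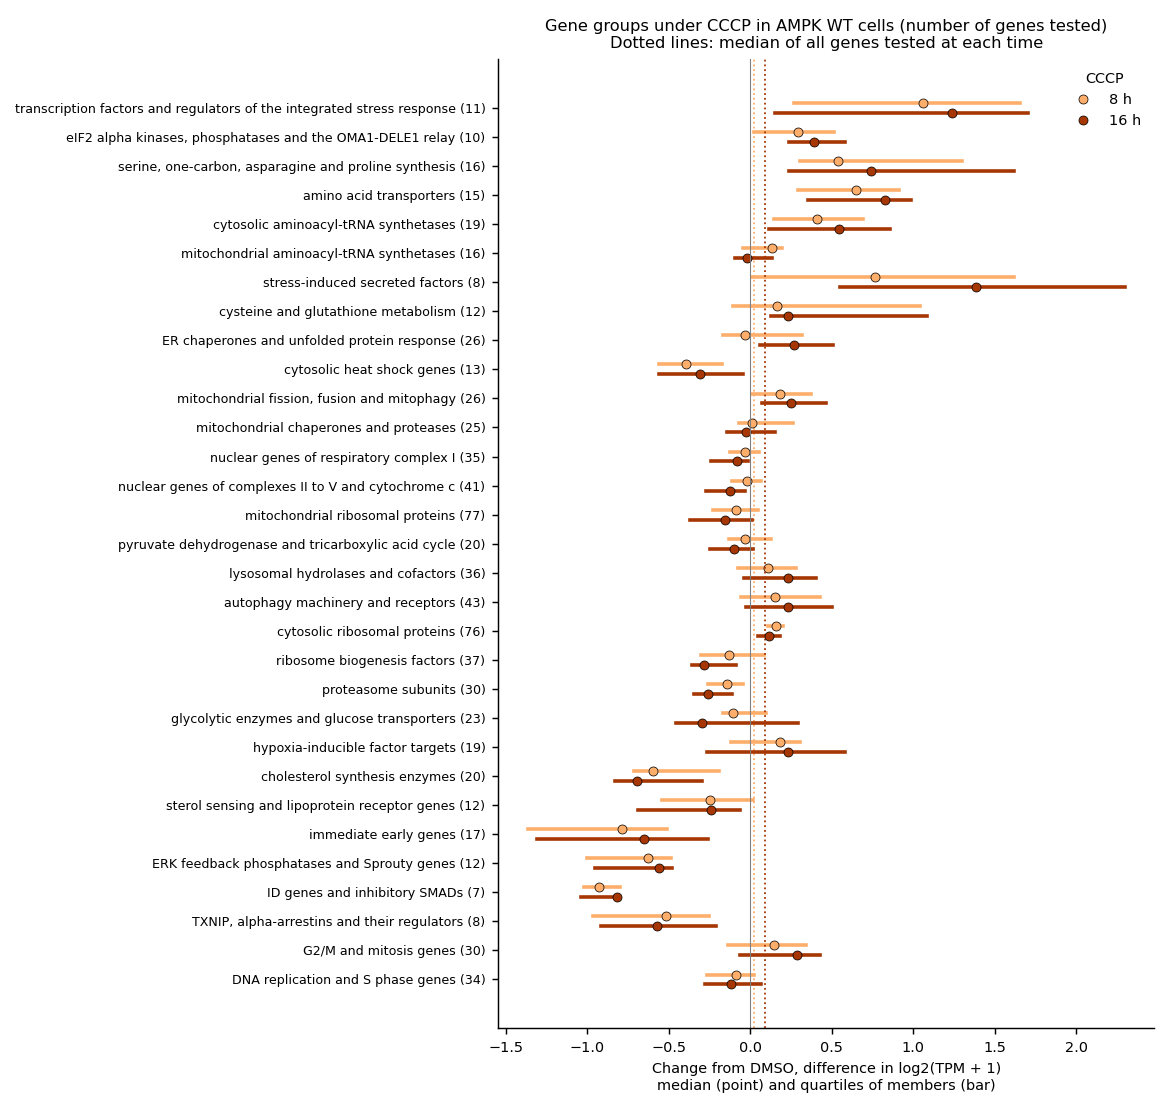
Median log2 change from DMSO (point) with the quartiles over tested members (bar) for 31 gene groups at 8 h and 16 h of CCCP; dotted lines mark the medians of all genes, 0.02 and 0.09. Secreted stress factors had the highest 16 h median, 1.38, and ID genes and inhibitory SMADs the lowest, -0.82.

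The comparison of 16 h with 8 h sets the CCCP libraries directly against each other, and DMSO libraries enter it only through the shared estimate of spread. Of 13617 genes, 3985 were higher at 16 h and 1524 lower, but only 214 and 49 by at least 1.5-fold (1.93% together). The surplus of higher calls went with the scaling, since median ratios gave 2651 and 2614 and quantile normalization 2791 and 2509. The steepest late rises began from levels near DMSO at 8 h. ANXA1, a calcium-dependent membrane protein that tempers inflammation, was at 2.60, 1.74 and 1.53 TPM under DMSO, 2.11, 1.73 and 1.90 at 8 h and 11.1, 11.2 and 11.8 at 16 h (2.09 ± 0.15 between the times). AKNA, a centrosomal AT-hook protein, went from 1.03, 0.903 and 0.947 to 1.40, 1.56 and 1.73 and then 8.05, 7.63 and 7.69 (1.78 ± 0.08). ANKRD1, a target of YAP and TEAD, went from 2.10, 2.58 and 2.37 at 8 h to 7.46, 8.58 and 8.11 (1.44 ± 0.12). In that group 8 of 16 genes were higher at 16 h than at 8 h and 0 lower (6 and 0 under either other scaling), among them AJUBA, a LIM protein that binds LATS kinases, at 3.50 to 5.04 TPM under DMSO and 14.8 to 16.3 at 16 h, while CTGF, the best known target, stayed below DMSO (7.68 to 8.51 TPM at 16 h against 34.3, 16.3 and 19.96; a change of -1.36 ± 0.22, or -1.07 without replicate 1 of DMSO).

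Other genes crossed back. HSPB8, a small heat shock protein of chaperone-assisted autophagy, was at 1.72, 1.72 and 2.00 TPM at 8 h and 5.28, 5.99 and 6.36 at 16 h, with DMSO between at 3.98, 2.10 and 2.66. Its 8 h fall was lost without replicate 1 of DMSO (-0.26, adjusted p = 0.18) and without replicate 3 of every group (adjusted p = 0.057). TNFRSF12A, the receptor of TWEAK, went from 6.50, 7.37 and 7.30 to 16.2, 15.9 and 15.8 TPM, a step of 1.08 ± 0.13. HMOX1, which degrades haem, fell from 29.6, 36.4 and 31.7 TPM to 13.2, 15.7 and 13.3 at 8 h (-1.15 ± 0.09) and regained 30.2, 28.6 and 30.2 at 16 h, where it overlapped DMSO. In the other direction, ACTG1, cytoplasmic gamma-actin, read 2285, 2396 and 2368 TPM at 8 h and then fell to 1338, 1283 and 1280.4 (-0.85 ± 0.05). Its DMSO mean was 2303 TPM, and only quantile normalization called a fall from it at 8 h (-0.27, adjusted p = 1.1e-05). CA2, carbonic anhydrase 2, fell from 49.2, 51.8 and 48 to 26.9, 29.6 and 27, and ZCCHC12, a coactivator of BMP signalling, from 43.1, 38.6 and 41.6 to 21.7, 23 and 23.4. AUH, a mitochondrial enzyme of leucine breakdown, rose to 12, 12 and 11.2 TPM at 8 h from 8.26, 7.32 and 7.07 and was at 6.85, 6.48 and 6.71 at 16 h (-0.73 ± 0.07 between the times).

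Treatment with the other agents for 16 h allows a direct test of where CCCP differs. Against Rot, 4558 genes differed (33.5%), 3224 higher under CCCP (23.7%) and 1334 lower (9.8%), but only 246 and 26 by at least 1.5-fold (2%); median-ratio scaling gave 2154 and 2332, and quantile normalization 2182 and 2376. Against 991, 4271 genes differed (31.4%), 2417 higher (17.7%) and 1854 lower (13.6%), 149 and 60 of them by at least 1.5-fold (1.53%). That surplus of higher calls also went with the scaling: median ratios gave 2049 higher and 2153 lower, and quantile normalization 2237 and 2296. Against Phen, 9488 differed (69.7%), 4600 higher (33.8%) and 4888 lower (35.9%), 1567 and 957 of them by at least 1.5-fold (18.5%). These comparisons share the CCCP libraries, so they are not independent of each other, and doses were not matched by any source used here.

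Most factors of the stress response were higher under CCCP than under Rot or 991 and lower than under Phen. Of its 11 factors, 8 were higher and 0 lower than under Rot (median 0.47), 8 and 0 than under 991 (median 0.55), and 2 and 9 than under Phen (median -0.66). ATF4 was an exception to that order, at 835 ± 14.6 TPM (SD, n = 3) under Rot and 776 ± 5.00 under 991, and neither difference from CCCP passed the test (adjusted p = 0.89 and 0.15), while CCCP exceeded Phen by 0.25 ± 0.06. NUPR1 was at 7.97 ± 0.684 TPM under Rot, 11.2 ± 0.598 under 991 and 40.05 ± 1.70 under Phen, which differed from CCCP by 1.51 ± 0.13, 1.06 ± 0.13 and -0.68 ± 0.13. TRIB3 was at 17.6 ± 0.913, 20.3 ± 0.877 and 92.2 ± 1.61 TPM in the same order, and INHBE at 1.20 ± 0.0222, 0.721 ± 0.210 and 25.2 ± 1.32. AKNA was at 1.31 ± 0.0516 and 1.42 ± 0.0786 TPM under Rot and 991 and at 18.7 ± 0.114 under Phen.

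Some genes differed from CCCP under each of the other agents. ANKRD1 was at 2.77 ± 0.336 TPM under Rot, 1.75 ± 0.231 under Phen and 2.51 ± 0.141 under 991, and CCCP exceeded each by 1.27 to 1.72 on the log2 scale. PARK2 was at 0.676 ± 0.0217, 0.316 ± 0.0403 and 0.824 ± 0.0840 TPM, so CCCP was higher by 0.63 ± 0.06, 0.98 ± 0.06 and 0.51 ± 0.06. LONP1 was likewise higher under CCCP, by 0.54 ± 0.05, 0.37 ± 0.05 and 0.72 ± 0.05. INSIG1 was at 29.1 ± 0.705 TPM under Rot, 79.7 ± 3.29 under Phen and 83.6 ± 1.02 under 991, against 15.2 to 17.1 under CCCP, and SCD was lower under CCCP by 0.41 ± 0.03, 1.13 ± 0.03 and 0.69 ± 0.03. Of the 20 cholesterol synthesis genes, 13 were lower than under Rot, 15 than under Phen and 18 than under 991. TXNIP was at 4.95 ± 0.359 TPM under Rot, which did not differ from CCCP past the test (adjusted p = 0.073), and at 30.4 ± 1.07 under 991 (CCCP lower by 2.03 ± 0.17).

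Chaperones and mitochondrial genes separated the agents differently. HSPA8 was at 968 ± 9.10 TPM under Rot, 691 ± 2.98 under 991 and 334 ± 6.35 under Phen, against 511 to 561 under CCCP, and 9 of 13 cytosolic heat shock genes were lower under CCCP than under Rot. Genes of the endoplasmic reticulum group were higher under CCCP than under Rot (20 of 26) and 991 (16 of 26). HMOX1 was at 160.1 ± 9.57 TPM under Phen against 28.6 to 30.2 under CCCP. Against Phen, 52 of 77 mitochondrial ribosomal protein genes and 32 of 41 genes of complexes II to V were higher under CCCP and 6 and 4 lower. SDHAF4 was at 3.69 ± 0.209 TPM under Phen and 18.6 to 19.1 under CCCP, a difference of 2.09 ± 0.12. Of 30 G2/M genes, 27 were lower under CCCP than under 991 and 0 higher.

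**Figure D5:**
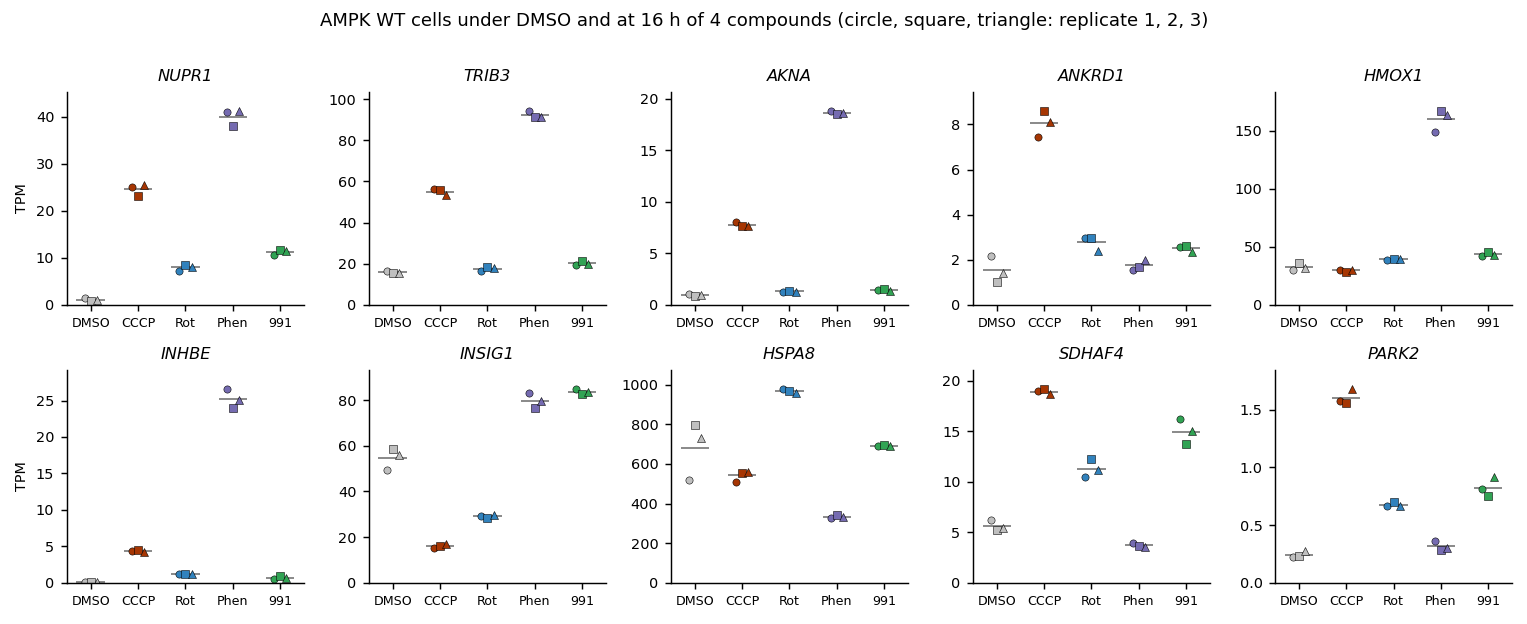
TPM of 10 genes in each AMPK WT library under DMSO (0 h) and after 16 h of CCCP, Rot, Phen or 991, 1 panel a gene with its own linear axis; points are the 3 libraries and the line is their mean. NUPR1, TRIB3 and INHBE were highest under Phen, ANKRD1 and PARK2 under CCCP, and INSIG1 was lowest under CCCP.

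The same course was run in AMPK KO cells. Under DMSO, PRKAA1, which encodes a catalytic subunit of AMPK, was at 6.95 ± 0.599 TPM (SD, n = 3) in AMPK WT and 2.55 ± 0.338 in AMPK KO, and PRKAA2, the other catalytic subunit, at 6.02 ± 0.346 and 4.36 ± 0.224. The labels do not say which subunits were targeted, and RNA left from a disrupted gene can still be counted. The change from DMSO to 16 h differed between the genotypes for 3841 of 13617 genes (28.2%), 1433 of them higher in KO (10.5%) and 2408 lower (17.7%). Median-ratio scaling gave 1798 and 1854, which is 49.2% higher in place of 37.3%. At 8 h it differed for 2918 genes (21.4%), 1037 higher (7.62%) and 1881 lower (13.8%), or 1456 and 1462 by median ratios and 1393 and 1606 after quantile normalization. Of the 10 AMPK subunits and upstream kinases tested in WT cells, 7 were higher and 0 lower at 8 h, and 9 and 0 at 16 h (5 and 0 by median ratios). Over all genes 35.2% were higher at 8 h and 44.1% at 16 h (4724 of 13617 by median ratios). The 16 h rise of PRKAA1 in WT cells lost its call under median ratios (adjusted p = 0.11), under quantile normalization (adjusted p = 0.48) and without replicate 1 of DMSO (adjusted p = 0.085).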

How the data were processed

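RNA was measured as poly(A) RNA-seq in HEK 293T cells. The authors deposited TPM per gene, 1 transcript per gene, in a table of 102 libraries. Per the submitters' processing notes, FastQC, STAR, HOMER and the build GRCh38 were used, with no versions or settings named. TPM keeps no depth, so the depth per library and its counting error are unknown. Libraries were grouped by their labels. Genes with at least 1 TPM in at least 3 libraries were kept (13617 of 27234). log2(TPM + 1) was fitted for all groups of the table together with limma 3.58.1 in R 4.3.3, with p-values adjusted by the Benjamini-Hochberg method over all kept genes. Tested on simulated data for CCCP at 16 h against DMSO over 13617 genes, the fit recovered 56% of changes of 0.25, 90% of 0.5, 98% of 1 and 100% of 2 on the log2 scale (50 genes each), with 8 calls among 13417 unchanged genes. The simulated noise was independent between libraries, with a spread per gene pooled over all groups. It held no outlying library like replicate 1 of DMSO and few changed genes, whereas 70.7% were called in the data. These rates may therefore not hold for the data.

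The members, gene lists and tests were chosen with earlier results of these data known. Genes were named by a rule: a fixed panel of 48, the largest rises and falls at 8 h and 16 h, in each list, between the times, against each other agent and between genotypes. It covers 379 genes, of which the text names a part. Promoter windows, with their coordinates, are RefSeq's on GRCh38.p14. Alternatives were another pseudocount, no filter, median-ratio scaling, quantile normalization, a fit of only the groups compared, a replicate block and leaving out each replicate. Leaving out replicate 1 of DMSO was chosen after seeing the data.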

Additional observations from a re-analysis of the deposited data

Results flagged for a closer look

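The response to 16 h of CCCP differed between AMPK KO and AMPK WT cells for 52 of the 113 genes named above, 34 with a higher and 18 with a lower change in KO. The test is the interaction term of genotype and treatment, 3 libraries per group, beside 28.2% of all genes. The genes were picked for their response in the same WT libraries, so this share is a description. Values in parentheses are the KO minus WT difference in log2 change. Below, higher or lower in KO refers to that difference in change and not to the level reached.

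Of 11 factors of the integrated stress response, 6 were higher and 0 lower in KO (median difference 0.24 over all 11), beside 10.5% of all genes higher and 17.7% lower. The counts were 9 and 0 of 16 amino acid synthesis genes, 7 and 2 of 15 transporters, 11 and 1 of 19 cytosolic tRNA synthetases and 5 and 0 of 8 secreted factors. Without replicate 1 of WT DMSO the transporters were 4 and 3, and without replicate 2 or 3 of every group the counts higher fell to 5 and 4 for the factors, 6 and 6 for synthesis, 2 and 2 for transporters, 6 and 6 for synthetases and 3 and 2 for secreted factors. DDIT3 went from 6.03 to 55.5 TPM on average in KO cells and from 6.80 to 41.8 in WT cells, a difference in response of 0.55 ± 0.11 (SE; limma, adjusted p = 0.00014). CTH went from 14.7 to 78.6 TPM on average in KO cells and from 12.8 to 33.7 in WT cells, a difference in response of 1.01 ± 0.10 (SE; limma, adjusted p = 1.6e-13). ATF3 went from 20.7 to 49.8 TPM on average in KO cells and from 39.3 to 43.6 in WT cells, a difference in response of 1.08 ± 0.17 (SE; limma, adjusted p = 1.6e-06). Higher too were NUPR1 (0.74), TRIB3 (0.35), CHAC1 (0.96), SESN2 (0.80), ASNS (0.34), MTHFD2 (0.45) and SLC1A4 (0.34), the tRNA synthetases AARS (0.15), FARSA (0.43), SARS2 (0.37) and WARS2 (0.22), and the secreted factors INHBE (0.50), FGF21 (0.55), STC2 (0.48), VEGFA (0.28) and ADM2 (0.55). Lower in KO were EIF2AK4 (-0.29) and SLC7A3 (-1.10). EIF2AK4 ended at 12.55 TPM in KO and 12.6 in WT, from DMSO means of 8.88 and 7.09. SLC7A3 was hardly detected in KO cells, at a mean of 0.0140 TPM under DMSO and listed at 0 at 16 h, against 1.25 and 3.74 in WT.

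The named lysosomal and mitophagy genes that differed were lower in KO. PARK2 went from 0.227 to 0.676 TPM on average in KO cells and from 0.240 to 1.60 in WT cells, a difference in response of -0.62 ± 0.08 (SE; limma, adjusted p = 9.2e-09). RRAGD went from 5.52 to 4.91 TPM on average in KO cells and from 4.77 to 7.88 in WT cells, a difference in response of -0.76 ± 0.10 (SE; limma, adjusted p = 7.6e-09). Lower as well were OPTN (-0.29), FLCN (-0.36), MAP1LC3B (-0.31), GLA (-0.83), HGSNAT (-0.48) and IDH2 (-0.57). FLCN ended at 7.41 TPM in KO and 7.57 in WT, from DMSO means of 7.615 and 5.81.

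Among lipid genes, ACAT2 (0.19), PMVK (0.24), SREBF1 (0.75), SCD (0.20) and FASN (0.36) were higher and INSIG1 (-0.74) lower in KO. In protein folding and degradation HSPA5 (0.23), XBP1 (0.48), HERPUD1 (0.29) and PSMD3 (0.15) were higher and HSPA8 (-0.42) and HSPB8 (-0.87) lower. The differences were positive for the immediate early genes FOSB (2.10) and EGR3 (2.19) and for GADD45B (1.02), which fell in WT cells. Their KO levels under DMSO were already low, at 2.02 TPM for FOSB and 0.515 for EGR3, and replicate 1 of WT DMSO was high in all 3 genes. Without that library the differences were 1.52 (adjusted p = 0.011) for FOSB, 1.78 (adjusted p = 7.5e-06) for EGR3 and 0.68 (adjusted p = 0.12) for GADD45B. It also moved those of ATF3 to 0.84 (adjusted p = 8e-05), CHAC1 to 0.71 (adjusted p = 0.012), NUPR1 to 0.62 (adjusted p = 0.014) and TNFRSF12A to 0.63 (adjusted p = 0.0093). The calls of EIF2AK4 (-0.21, adjusted p = 0.16), AARS (0.12, adjusted p = 0.05), PMVK (0.19, adjusted p = 0.11), HSPA8 (-0.23, adjusted p = 0.22), PDK1 (-0.30, adjusted p = 0.13), CTGF (0.68, adjusted p = 0.11) and GADD45B were lost without it. CTGF (0.97), AJUBA (0.59) and TNFRSF12A (0.81) were higher and ANKRD1 (-0.66), ACTG1 (-0.58), CA2 (-0.71), PDK1 (-0.40) and RRM2 (-0.59) lower. ANKRD1 and CA2 were not lower in level in KO at 16 h, and their KO levels under DMSO were higher. ANKRD1 went from 3.06 to 8.285 TPM in KO and from 1.535 to 8.05 in WT. CA2 went from 163.7 to 33.7 TPM in KO and from 82.45 to 27.8 in WT.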

How the results depend on the processing

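For the 113 named genes, the changes from DMSO at 8 h and 16 h and between the times were recomputed in every setting. Those calls kept their direction in every setting where the change was called. Of 3390 recomputed gene values 52 lost and 57 gained a call, while 3281 did neither. Named differences from Rot, Phen or 991 and between genotypes are not among these values. List medians were less stable than gene calls. Of those recomputed for 8 h and 16 h against DMSO, 179 moved by at least the SD between libraries and 741 did not. Median-ratio scaling moved 50 and left 42, and quantile normalization moved 47 and left 45. Between 16 h and 8 h of CCCP, median-ratio scaling gave 2651 genes higher and 2614 lower and quantile normalization 2509 lower. Against Rot those scalings gave 2332 and 2376 lower. With a pseudocount of 0.1 TPM, changes of at least 1.5-fold numbered 2560 at 8 h, 639 between the times, 603 against Rot, 461 against 991, and 704 and 500 for the genotype difference at 16 h and 8 h. Leaving out libraries gave 3360 to 5798 genes between the times (2444 to 4067 higher, 831 to 1731 lower), 2824 to 4587 against Rot (2020 to 3245, 804 to 1387) and 2439 to 4332 against 991 (1408 to 2427, 1031 to 1945). For the genotype difference it gave 1638 to 4081 at 16 h (654 to 1538, 984 to 2543) and 958 to 3304 at 8 h (394 to 1145, 564 to 2159). The lowest totals came without replicate 2 or 3, and the cause was not tested. 

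Same-numbered libraries did not deviate together (correlations -0.193 to 0.092, own number best in 2 of 9), so the numbers were not taken as pairs. With a replicate block 4920 genes were higher and 4173 lower at 8 h, 6113 and 3730 at 16 h, and 4232 and 1716 between the times. Without a filter on low values 5070 were higher and 5983 lower at 8 h. Without replicate 1 of DMSO, 4405 and 3609 genes passed at 8 h and 5730 and 3221 at 16 h.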

Other observations

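Several further groups were measured. The shares over all genes were 35.2% higher and 29.8% lower at 8 h, 44.1% and 26.6% at 16 h, and 29.3% and 11.2% between the times, and several counts below lie near them. Of 21 genes of mitochondrial import, 7 were higher and 11 lower at 8 h and 8 and 12 at 16 h (medians -0.13 and -0.19). Targets of HIF, the oxygen-sensing factor, had 9 of 19 higher and 5 lower at 8 h and 11 and 6 at 16 h, close to the shares over all genes. Targets of NRF2, the antioxidant factor, had 4 of 16 higher and 7 lower at 8 h and 6 and 5 at 16 h (4 and 7 by median-ratio scaling), with 9 higher and 3 lower between the times. Targets of p53 had 4 of 17 higher and 10 lower at 8 h and 5 and 5 at 16 h, and 7 were higher and 0 lower at 16 h than at 8 h. Without replicate 1 of DMSO the p53 counts at 16 h were 6 and 3, and under quantile normalization 4 and 7. Purine synthesis genes had 8 of 12 higher and 2 lower at 8 h and 5 and 3 at 16 h (3 and 6 by median ratios). Of 17 subunits of the lysosomal proton pump, 4 were higher and 7 lower at each time (7 and 5 at 8 h under quantile normalization).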
